A study of Mus musculus with 9 samples.

Results

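Transcripts of myelin and of oligodendrocytes, the cells that wrap axons of the central nervous system in myelin, were followed in microglia sorted from mouse brain. The set was a list of 34 genes with known roles, from the proteins of the sheath to the transcription factors of the lineage. It was chosen with earlier results of these data known. Of these, 32 had a probe set annotated to that gene alone, out of 19938 genes measured in this way, and each of the 32 had 1 such probe set. Evi2a was represented only by a probe set shared with other genes, and Enpp2 had no annotated probe set in the table used here, so neither has a value.

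Microglia are the resident macrophages of the brain. They were taken as CD45+ CD11b+ cells by flow cytometry from 9 mice, 1 array each, aged 8.5 months. Every mouse was on the 5XFAD background, in which mutant human genes cause amyloid plaques to form, and none had the mouse's own TREM2, a receptor through which microglia sense lipids. In 3 mice the R47H variant of human TREM2 was expressed (R47H), in 3 the common variant of human TREM2 (CV), and in 3 no human TREM2 (KO). Mouse 1 of each genotype was female and mice 2 and 3 were male. The labels do not give the promoter or the construct that carried human TREM2, nor whether mice of a genotype were littermates. Brains were perfused with saline and dissociated with a kit for neural tissue before sorting.

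Myelin is a stack of membrane that oligodendrocytes spiral around axons. It is rich in cholesterol and in galactolipids, and it is held compact by a small set of proteins such as myelin basic protein. Oligodendrocytes arise from precursor cells under Olig and Sox family transcription factors and switch on the sheath genes as they mature. Microglia take up myelin debris in ageing and in disease, and dissociated brain tissue also yields myelin fragments and free oligodendrocytes. In sorted cells, more oligodendrocyte material in a sample and more of these transcripts per cell cannot be told apart.

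The promoters of called members that are listed by RefSeq (build GRCm38.p6) are shown for 3 genes with the smallest adjusted p in R47H minus CV among members with a listed promoter, Ermn, Mag and Mobp, and for Cldn11, a called member with no match. Each window runs from 250 bases before to 50 bases after a transcript start. It is written 5′ to 3′, with capitals marking the SOX core motifs ACAAAG and ACAATG on either strand (CTTTGT and CATTGT on the other). SOX10 is the SOX factor that drives myelin genes in oligodendrocytes.
Ermn (chr2:58052815-58053114, minus strand): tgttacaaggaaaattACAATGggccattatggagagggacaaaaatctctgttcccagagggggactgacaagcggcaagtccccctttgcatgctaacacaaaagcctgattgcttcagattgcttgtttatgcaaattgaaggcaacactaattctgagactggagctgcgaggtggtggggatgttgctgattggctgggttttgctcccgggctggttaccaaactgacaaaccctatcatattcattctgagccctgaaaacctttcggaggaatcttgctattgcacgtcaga
Mag (chr7:30914814-30915113, minus strand): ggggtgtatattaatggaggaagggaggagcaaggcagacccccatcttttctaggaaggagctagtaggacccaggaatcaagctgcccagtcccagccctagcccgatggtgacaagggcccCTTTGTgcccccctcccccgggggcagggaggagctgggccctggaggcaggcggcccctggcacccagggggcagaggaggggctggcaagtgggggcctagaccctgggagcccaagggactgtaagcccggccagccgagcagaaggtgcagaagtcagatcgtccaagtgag
Mobp (chr9:120149492-120149791, plus strand): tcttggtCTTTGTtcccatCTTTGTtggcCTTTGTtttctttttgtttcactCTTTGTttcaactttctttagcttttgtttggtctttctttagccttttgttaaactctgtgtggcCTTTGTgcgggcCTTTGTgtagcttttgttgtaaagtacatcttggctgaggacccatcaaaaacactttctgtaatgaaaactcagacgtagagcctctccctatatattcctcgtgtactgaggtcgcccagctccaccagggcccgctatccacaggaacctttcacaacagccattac
Cldn11 (chr3:31149670-31149969, plus strand): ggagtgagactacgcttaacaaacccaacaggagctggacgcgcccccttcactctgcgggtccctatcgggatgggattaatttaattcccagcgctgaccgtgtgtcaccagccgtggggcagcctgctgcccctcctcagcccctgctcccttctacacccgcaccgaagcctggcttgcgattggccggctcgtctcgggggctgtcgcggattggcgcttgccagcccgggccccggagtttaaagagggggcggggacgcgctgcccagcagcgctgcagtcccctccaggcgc

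The Mobp window held 6 matches, those of Ermn and Mag 1 each, and that of Cldn11 held 0. For Mag the first of 3 windows listed is shown, and 1 of the others held 0 matches. A promoter was listed for 24 members, and 12 of them (50%) held a match in at least 1 window, against 31.7% of 27025 genes with a listed promoter. Counted by window, 41.7% of 36 member windows held a match, against 28.6% of all 32851 windows. Of 7 members called in R47H minus CV with a listed promoter, 5 held a match. A match is only a description of these letters.

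The sorted cells carried the transcripts that define microglia. All 14 measured microglial markers were tested, with means over the 9 arrays between 9.96 and 12.7 on the log2 scale. Tmem119, a surface protein of microglia, stood at 11.75 ± 0.07 in R47H, 11.60 ± 0.12 in CV and 11.87 ± 0.13 in KO (log2, mean ± SD, n = 3 each). The median differences over the list were -0.01 for R47H minus KO, -0.10 for CV minus KO and 0.09 for R47H minus CV. In these comparisons 0 of its 14 genes were called (limma; 0, 7 and 5 at an unadjusted p under 0.05). Over all 10795 tested genes, 613, 1422 and 1336 had an unadjusted p under 0.05 in the same 3 comparisons. Siglech and C1qa, a lectin and a complement component of microglia, stood at -0.10 and 0.09 in R47H minus KO (adjusted p = 0.945 and 0.95). Genes were tested if their mean over the 9 arrays reached the median of all probe sets (5.31), which left 10795 genes and 24 of the 32 members. The members below it were Opalin, Gjb1, Tspan2, Gpr37, Ugt8a, Gal3st1, Aspa and Olig2. Ermn passed the filter only through the R47H arrays, since its CV and KO means both lay below it. Fa2h also passed only through them, with means of 5.16 in CV and 5.44 in KO. The CV and KO arrays together averaged below the filter for Fa2h.

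**Figure D1:**
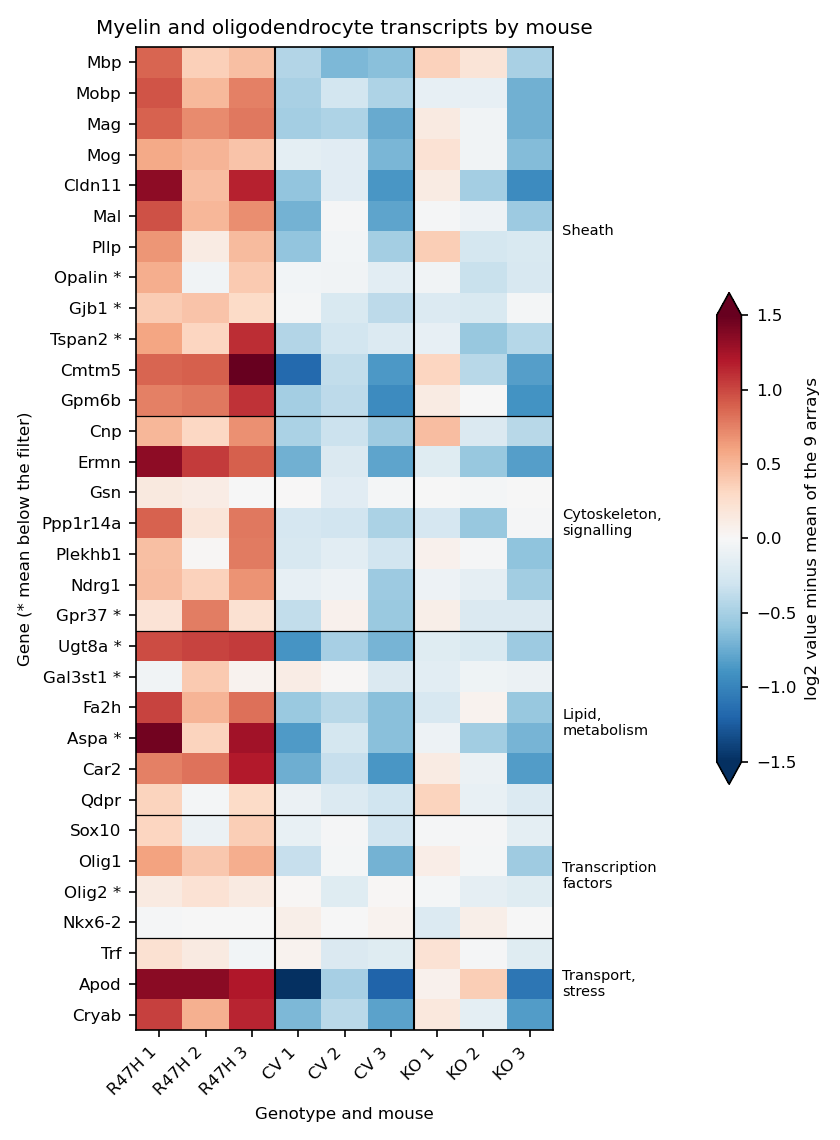
Each row is 1 of the 32 measured genes and each column 1 mouse, with colour giving the log2 value minus the gene's mean over the 9 arrays. The R47H columns are red for most genes of the sheath, lipid and transport groups, the CV columns are mostly blue, and KO mouse 3 resembles the CV columns more than KO mice 1 and 2 do.

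Myelin transcripts were highest in R47H microglia. In R47H minus CV, 11 of the 24 tested members were higher and 0 lower (limma, p adjusted over all 10795 genes by Benjamini-Hochberg and under 0.05), where 0.38% of all genes were called higher. Those 11 were 45.8% of the tested members and 26.8% of the 41 genes called higher. Because the list was chosen with earlier results of these data known, such shares are not independent of the data. The 11 included Ermn and Fa2h, which reached the filter only through their R47H arrays. Without the filter 6 of 32 members were called higher, where 23 of 19938 genes were. The median difference was 1.04 over the 24 tested members and 0.95 over all 32 measured, against 0.01 over all tested genes. In R47H minus KO, 1 member (Ermn) was called higher, where 0.0648% of all genes were. Ermn was tested only because its R47H values lifted its mean over the filter. Without the filter 2 of 32 members were called higher, where 7 of 19938 genes were. With the filter, 19 members had an unadjusted p under 0.05 (limma) and positive differences. Such a p, in either direction, was found for 613 of 10795 genes. The median there was 0.82 over the tested and 0.71 over the measured members, against -0.0011 over all tested genes. In CV minus KO, 0 members were called in either direction, where 0.259% of all genes were called lower. At an unadjusted p under 0.05 (limma) there were 2 members, both lower, and 1422 of all 10795 genes in either direction. The medians were -0.20 and -0.16, against -0.02 over all tested genes.

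The arrays separated in the same way. All 3 R47H arrays lay above all 3 CV arrays for 26 of the 32 measured members, where this held for 6.44% of all measured genes. They lay above all 3 KO arrays for 23 members, where this held for 3.11% of genes, and above all CV and KO arrays for 22 members, where this held for 1.44%. For 0 members did all CV arrays lie below all KO arrays, which 6.2% of genes did. R47H arrays also lay above all CV arrays for 9 of 14 microglial markers (median difference 0.09). The same held for 8 of 15 astrocyte and 24 of 49 other mature oligodendrocyte genes, described below. It held for 1 of 14 precursor, 1 of 15 neuronal, 0 of 9 endothelial and 0 of 11 neutrophil genes. In the first 3 of these lists, R47H arrays lay above all KO arrays for 0, 5 and 17 genes. All CV arrays lay below all KO arrays for 7, 1 and 4 genes of the same lists. The comparisons share arrays, so they are not separate evidence. With 3 mice in each group an exact permutation test of a single gene cannot go below p = 0.10, and the tests on single genes rest on the limma model.

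Among sheath genes, 6 of 9 tested were called higher in R47H minus CV (median difference 1.22) and 0 in R47H minus KO (median 1.01; limma, 9 higher at an unadjusted p under 0.05). Myelin-associated glycoprotein, Mag (probe set 10562152), sits on the innermost myelin membrane facing the axon. Its log2 values were 7.38, 7.21 and 7.28 in R47H mice 1 to 3, 5.99, 6.03 and 5.73 in CV mice, and 6.62, 6.44 and 5.77 in KO mice. The R47H arrays lay above all others, and KO mouse 3 lay within the CV range. Mag was 2.59-fold higher in R47H than in CV (log2 difference 1.37 ± 0.17 SE, limma adjusted p = 0.0134) and stood 1.01 ± 0.17 above KO (adjusted p = 0.0926).

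Myelin basic protein, Mbp (10457022), which binds the cytoplasmic faces of the sheath together, read 8.52, 8.0 and 8.10 in R47H, 7.21, 6.98 and 7.02 in CV, and 7.99, 7.84 and 7.17 in KO. Here KO mice 1 and 2 came close to R47H, and KO mouse 3 lay among the CV mice. Mbp was 2.20-fold higher in R47H than in CV (1.14 ± 0.15, adjusted p = 0.0181), with 0.54 ± 0.15 for R47H minus KO (adjusted p = 0.488). Mobp (10590269), a small basic protein of compact myelin, had values of 7.50, 7.04 and 7.30 in R47H, 6.06, 6.27 and 6.09 in CV, and 6.42, 6.42 and 5.83 in KO. For Mobp the R47H arrays stood clear of both other groups, which overlapped. Its differences were 1.14 ± 0.16 against CV (adjusted p = 0.0235) and 1.05 ± 0.16 against KO (adjusted p = 0.0796).

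Claudin-11, Cldn11 (10491313), forms the tight junctions between the layers of the sheath. It read 8.18, 7.30 and 8.0 in R47H, 6.25, 6.68 and 5.97 in CV, and 6.97, 6.34 and 5.90 in KO. R47H mouse 2 was the lowest of its group and still above every other array. The difference was 1.53 ± 0.27 against CV (adjusted p = 0.044) and 1.42 ± 0.27 against KO (adjusted p = 0.136). Cmtm5 (10415132), a transmembrane protein that oligodendrocytes express, read 7.20, 7.22 and 7.87 in R47H, 5.16, 5.96 and 5.47 in CV, and 6.65, 5.90 and 5.5 in KO. The groups R47H and CV were more than 1 log2 unit apart throughout, and Cmtm5 was 3.74-fold higher in R47H (1.90 ± 0.32, adjusted p = 0.0393), with 1.41 ± 0.32 against KO (adjusted p = 0.271).

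Gpm6b (10603151), a membrane protein of the proteolipid family that neurons and astrocytes make as well, had values of 6.93, 6.97 and 7.25 in R47H, 5.66, 5.78 and 5.23 in CV, and 6.29, 6.17 and 5.28 in KO. KO mouse 3 fell within the CV range again. The difference was 1.49 ± 0.25 against CV (adjusted p = 0.039) and 1.14 ± 0.25 against KO (adjusted p = 0.237). Mal (10487441), a proteolipid that carries membrane cargo to the sheath, missed the threshold narrowly. It read 7.97, 7.51 and 7.71 in R47H, 6.31, 6.99 and 6.23 in CV, and 6.99, 6.93 and 6.47 in KO, with 1.22 ± 0.22 for R47H minus CV (adjusted p = 0.0517) and 0.93 ± 0.22 for R47H minus KO (adjusted p = 0.309). Mog, the outermost glycoprotein of myelin, and Pllp, or plasmolipin, stood 0.83 ± 0.18 and 0.80 ± 0.20 above CV without passing (adjusted p = 0.106 and 0.151). Against KO their differences were 0.66 ± 0.18 and 0.46 ± 0.20 (adjusted p = 0.451 and 0.87).

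The sheath genes below the filter were described without a test. Tspan2, a tetraspanin, read 5.67, 5.40 and 6.19 in R47H, 4.64, 4.8 and 4.87 in CV, and 4.96, 4.51 and 4.65 in KO, and its R47H arrays did not overlap the others. Gjb1, the gap junction protein connexin 32, averaged 5.54 ± 0.07 in R47H, 4.96 ± 0.18 in CV and 5.02 ± 0.11 in KO (SD, n = 3 each). Opalin, a glycoprotein of mature oligodendrocytes, averaged 4.61 ± 0.31 in R47H, 4.23 ± 0.06 in CV and 4.10 ± 0.14 in KO. At 4.26 R47H mouse 2 equalled CV mouse 2 and KO mouse 1 for Opalin, so its groups overlapped.

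**Figure D2:**
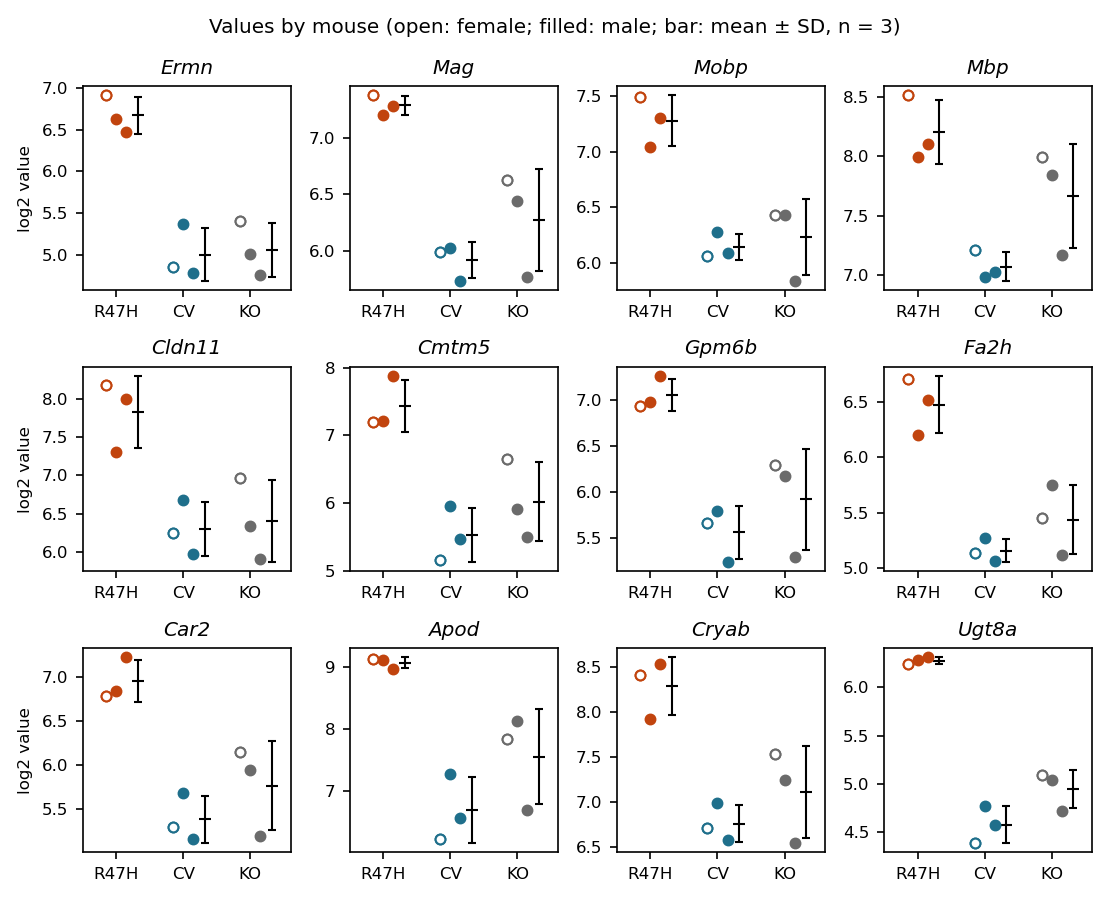
Log2 values by mouse for the 11 genes called in R47H minus CV and for Ugt8a, with R47H left of CV and KO, an open circle for the female of each genotype and a bar for the mean ± SD of 3 mice. R47H mice lie above all CV and KO mice in each of these panels, and in most of them KO mouse 3, the rightmost filled circle, is the lowest KO mouse.

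Ermn encodes ermin, a protein that binds actin in the outer cytoplasmic lip of the sheath. Among the 24 members that reached the filter, Ermn was the one called against both other genotypes. Its probe set (10482795) read 6.91, 6.63 and 6.47 in R47H, 4.85, 5.36 and 4.78 in CV, and 5.40, 5.01 and 4.75 in KO. CV and KO overlapped and lay at least 1 log2 unit below R47H. Ermn was 3.19-fold higher in R47H than in CV (1.67 ± 0.19, adjusted p = 0.00812) and 3.07-fold higher than in KO (1.62 ± 0.19, adjusted p = 0.0221). Without the filter on low values, its adjusted p was 0.0166 against CV and 0.0478 against KO. In that fit Ugt8a was called against both genotypes as well (limma adjusted p = 0.00196 and 0.019).

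The other cytoskeletal and signalling genes differed less and did not pass. Cnp, a phosphodiesterase attached to the membrane of uncompacted myelin, read 8.47, 8.27 and 8.65 in R47H, 7.49, 7.64 and 7.44 in CV, and 8.43, 7.75 and 7.55 in KO. KO mouse 1 lay among the R47H mice. The differences were 0.94 ± 0.18 against CV (adjusted p = 0.0707) and 0.55 ± 0.18 against KO (adjusted p = 0.671). Ppp1r14a, an inhibitor of myosin phosphatase, read 7.0, 6.29 and 6.90 in R47H, 5.86, 5.83 and 5.64 in CV, and 5.86, 5.55 and 6.10 in KO, with 0.95 ± 0.18 against CV (adjusted p = 0.0689) and 0.89 ± 0.18 against KO (adjusted p = 0.193).

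Ndrg1, a stress-responsive protein needed to keep peripheral myelin, read 6.63, 6.51 and 6.83 in R47H, 6.04, 6.08 and 5.62 in CV, and 6.09, 6.02 and 5.64 in KO. Its R47H arrays lay above all others, at 0.74 ± 0.15 from CV and 0.74 ± 0.15 from KO (adjusted p = 0.0874 and 0.193). Plekhb1 averaged 6.36 ± 0.38 in R47H, 5.72 ± 0.06 in CV and 5.77 ± 0.36 in KO. Gsn, the actin-severing gelsolin, averaged 7.06 ± 0.08 in R47H, 6.91 ± 0.10 in CV and 6.96 ± 0.01 in KO, and its groups overlapped. Gpr37, a receptor of oligodendrocytes below the filter, averaged 5.39 ± 0.32 in R47H, 4.70 ± 0.32 in CV and 4.87 ± 0.18 in KO.

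Of the genes of myelin lipids and of metabolism, 2 of 3 tested were called higher in R47H minus CV (median difference 1.32) and 0 in R47H minus KO (limma; 2 higher at an unadjusted p under 0.05). Fa2h (10581824), the hydroxylase that makes the 2-hydroxy fatty acids of myelin galactolipids, read 6.71, 6.20 and 6.52 in R47H, 5.14, 5.27 and 5.07 in CV, and 5.45, 5.75 and 5.12 in KO. R47H lay above both groups, and Fa2h was 2.49-fold higher than in CV (1.32 ± 0.17, adjusted p = 0.0151), with 1.04 ± 0.17 against KO (adjusted p = 0.0796). Fa2h reached the filter only through its R47H arrays, and without the filter its limma adjusted p against CV was 0.028. Car2 (10490923), a carbonic anhydrase of oligodendrocytes, read 6.79, 6.84 and 7.22 in R47H, 5.3, 5.68 and 5.16 in CV, and 6.15, 5.94 and 5.19 in KO. It was 2.97-fold higher in R47H than in CV (1.57 ± 0.25, adjusted p = 0.0342) and stood 1.19 ± 0.25 above KO (adjusted p = 0.195).

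Ugt8a (10501963), the transferase that makes galactosylceramide, the main galactolipid of myelin, lay below the filter on its mean. It read 6.24, 6.28 and 6.31 in R47H, 4.39, 4.77 and 4.57 in CV, and 5.09, 5.04 and 4.72 in KO, so the R47H mice were within 0.1 of each other and more than 1 log2 unit above every other array. In the fit without the filter its difference was 1.70 ± 0.12 against CV (adjusted p = 0.00196) and 1.33 ± 0.12 against KO (adjusted p = 0.019), with 19938 genes tested. Aspa, which splits N-acetylaspartate and so supplies acetate for lipid synthesis, read 6.29, 5.17 and 6.09 in R47H, 3.99, 4.57 and 4.20 in CV, and 4.76, 4.31 and 4.14 in KO. R47H mouse 2 stood about 1 unit below its group mates for Aspa, and its adjusted p without the filter was 0.0794 against CV.

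Gal3st1, the sulfotransferase that turns galactosylceramide into sulfatide, averaged 5.03 ± 0.24 in R47H, 4.87 ± 0.17 in CV and 4.79 ± 0.05 in KO, close to each other and below the filter. Qdpr, which recycles tetrahydrobiopterin, read 8.27, 7.91 and 8.22 in R47H, 7.85, 7.74 and 7.63 in CV, and 8.27, 7.82 and 7.73 in KO. KO mouse 1 matched the highest R47H mouse, and Qdpr stood 0.39 ± 0.11 above CV (adjusted p = 0.181) and 0.19 ± 0.11 above KO (adjusted p = 0.907).

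The transcription factors of the lineage had median differences of 0.34 in R47H minus CV and 0.26 in R47H minus KO, and 0 of the 3 tested were called (limma; 2 in R47H minus CV and 1 in R47H minus KO at an unadjusted p under 0.05, all higher). Olig1, a basic helix-loop-helix factor of the lineage, read 6.72, 6.53 and 6.67 in R47H, 5.78, 6.09 and 5.42 in CV, and 6.22, 6.09 and 5.59 in KO, and its R47H arrays lay above the rest. It stood 0.88 ± 0.19 above CV (adjusted p = 0.0951) and 0.68 ± 0.19 above KO (adjusted p = 0.451). Sox10, the SOX factor of glia that make myelin, read 6.36, 5.94 and 6.4 in R47H, 5.93, 6.02 and 5.74 in CV, and 6.02, 6.02 and 5.89 in KO, with R47H mouse 2 inside the range of the others. Its differences were 0.34 ± 0.12 against CV (adjusted p = 0.32) and 0.26 ± 0.12 against KO (adjusted p = 0.905).

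Olig2, which specifies the lineage, averaged 4.79 ± 0.05 in R47H, 4.58 ± 0.11 in CV and 4.51 ± 0.07 in KO, below the filter. Nkx6-2, a homeobox factor of maturing oligodendrocytes, read 6.10, 6.11 and 6.11 in R47H, 6.20, 6.11 and 6.16 in CV, and 5.90, 6.20 and 6.11 in KO. It was the only measured member that was not higher in R47H than in CV by its mean, at -0.05, a sign that turned without CV mouse 1 (0.01).

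Of the carriers and stress proteins, Apod and Cryab were called in R47H minus CV. Apod (10439009), a secreted lipid carrier of oligodendrocytes and perivascular cells, read 9.13, 9.12 and 8.97 in R47H, 6.23, 7.28 and 6.57 in CV, and 7.84, 8.14 and 6.69 in KO. The R47H mice were close together while CV and KO mice spread widely. Apod was 5.20-fold higher in R47H than in CV (2.38 ± 0.37, adjusted p = 0.0327) and stood 1.52 ± 0.37 above KO (adjusted p = 0.343). The difference between CV and KO was -0.86 ± 0.37 (adjusted p = 0.37).

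Cryab (10585214), a small heat shock protein that oligodendrocytes and astrocytes make, read 8.40, 7.92 and 8.53 in R47H, 6.71, 6.99 and 6.58 in CV, and 7.54, 7.24 and 6.55 in KO. It was 2.88-fold higher in R47H than in CV (1.53 ± 0.24, adjusted p = 0.0317), with 1.18 ± 0.24 against KO (adjusted p = 0.171). Trf, the iron carrier transferrin, which oligodendrocytes secrete, was bright and nearly level, at 11.6, 11.5 and 11.4 in R47H, 11.5, 11.2 and 11.2 in CV, and 11.6, 11.4 and 11.2 in KO. Its differences were 0.22 ± 0.08 against CV and 0.10 ± 0.08 against KO (adjusted p = 0.3 and 0.946).

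**Figure D3:**
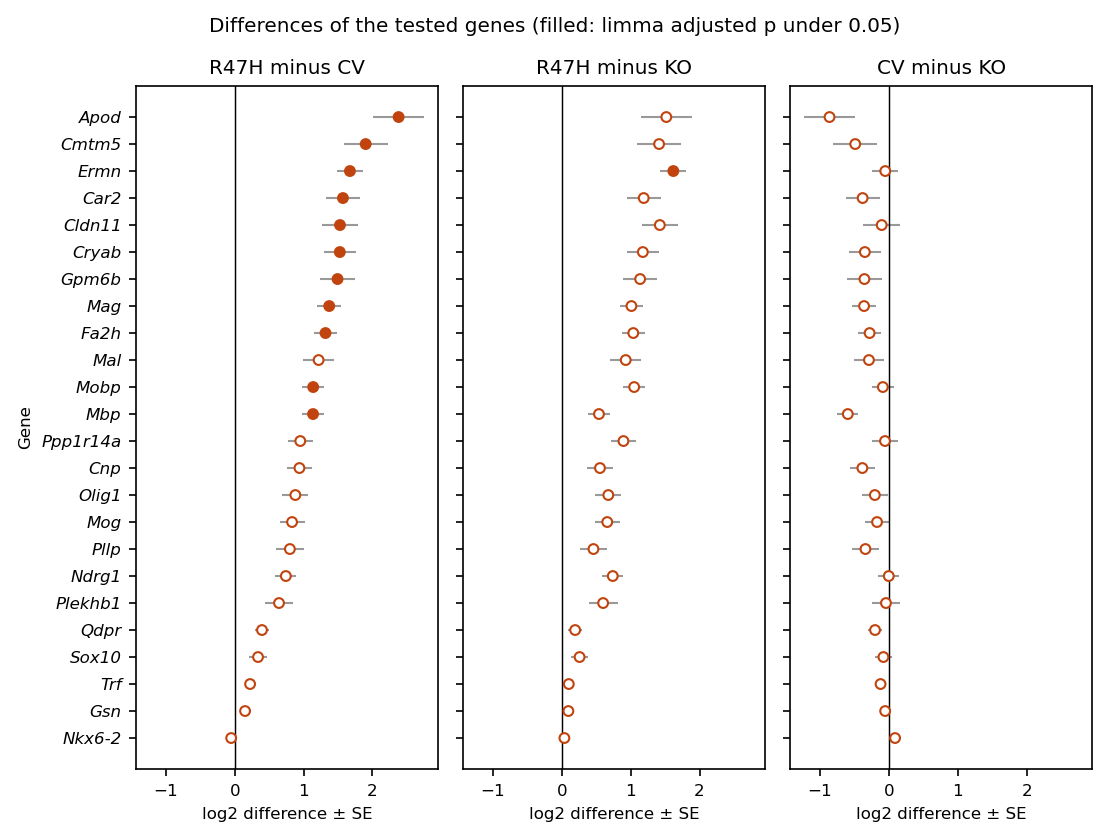
Log2 differences with SE for the 24 tested genes, ordered by R47H minus CV, in R47H minus CV (left), R47H minus KO (middle) and CV minus KO (right), with filled points for genes called. In the left panel 11 points are filled, in the middle panel 1 and in the right panel 0.

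KO mice spread more than the other groups for these genes. The median SD within a genotype over the tested members was 0.23 in R47H, 0.18 in CV and 0.35 in KO, against 0.10, 0.10 and 0.12 over all tested genes. The median deviation of the 32 measured members from their means over the 9 arrays was 0.63, 0.40 and 0.69 in R47H mice 1 to 3, -0.44, -0.21 and -0.55 in CV mice, and 0.03, -0.12 and -0.53 in KO mice. KO mouse 3 was the lowest KO mouse for 24 of 32 members and lay within the CV range for 25, while KO mouse 1, the female, was the highest for 25. KO mouse 1 lay above all CV mice for 23 members, KO mouse 2 for 13 and KO mouse 3 for 1. Without KO mouse 3, 3 members were called lower in CV minus KO, where 45 of 10802 genes (0.417%) were, and without KO mouse 1 or KO mouse 2 the count was 0 (limma; 1 at an unadjusted p under 0.05 in each). The 3 were Mbp at -0.80 (limma adjusted p = 0.0087), Mag at -0.59 (adjusted p = 0.0336) and Apod at -1.35 (adjusted p = 0.0386). The female of each genotype was mouse 1, and the part of sex in this spread was not tested.

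Of 52 other genes of mature oligodendrocytes, chosen for this work with earlier results of these data known, 49 were measured and 30 tested. In R47H minus CV, 2 were called higher and 0 lower, at a median of 0.18 over the tested and 0.23 over the measured genes. Stmn4, a stathmin that binds tubulin, was higher at 6.71 ± 0.17 in R47H against 5.77 ± 0.22 in CV and 5.90 ± 0.10 in KO (R47H minus CV 0.95 ± 0.13, limma adjusted p = 0.02). Tubb4a, the beta tubulin of oligodendrocytes and neurons, stood at 7.23 ± 0.15 in R47H, 5.87 ± 0.21 in CV and 6.16 ± 0.49 in KO (1.35 ± 0.22, adjusted p = 0.0369). In R47H minus KO 0 of the 30 were called (limma; 9 higher and 1 lower at an unadjusted p under 0.05), and the median was 0.12. Prr5l stood 0.48 above KO there (adjusted p = 0.398) and -0.02 from CV. Of the 50 genes with the largest positive R47H minus CV differences, 17 were members, 5 came from this second list and 2 were astrocyte markers. Among all 10795 tested genes these lists had 24, 30 and 8. The lists were chosen with earlier results of these data known, so such counts are not independent of the data.

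Markers of oligodendrocyte precursors lay low. Of 14 measured, 1 (Cacng4) reached the filter, and it stood at 5.98 ± 0.07 in R47H, 5.84 ± 0.14 in CV and 5.96 ± 0.08 in KO. The precursor receptor Pdgfra, chosen after its values were seen as were Gja1, Gfap, Aqp4 and S100a8 below, read 4.10 on each R47H array, 4.09, 4.10 and 4.02 on CV arrays and 4.12, 4.47 and 4.10 on KO arrays. Array medians of this list ran from -0.05 to 0.06 over the 9 mice, and its median difference over measured genes was 0.02 for both R47H minus KO and R47H minus CV. Neuronal markers were as low, with 1 of 15 above the filter (Camk2a, a kinase of synapses, at 0.05 in R47H minus KO, adjusted p = 0.974) and a median difference of 0.02 in R47H minus CV. Of the 9 endothelial markers measured, 2 reached the filter: Flt1, a vascular endothelial growth factor receptor that was called higher in CV than in KO (1.55, limma adjusted p = 0.00413), and Pecam1, at -0.28 in R47H minus KO (adjusted p = 0.907).

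**Figure D4:**
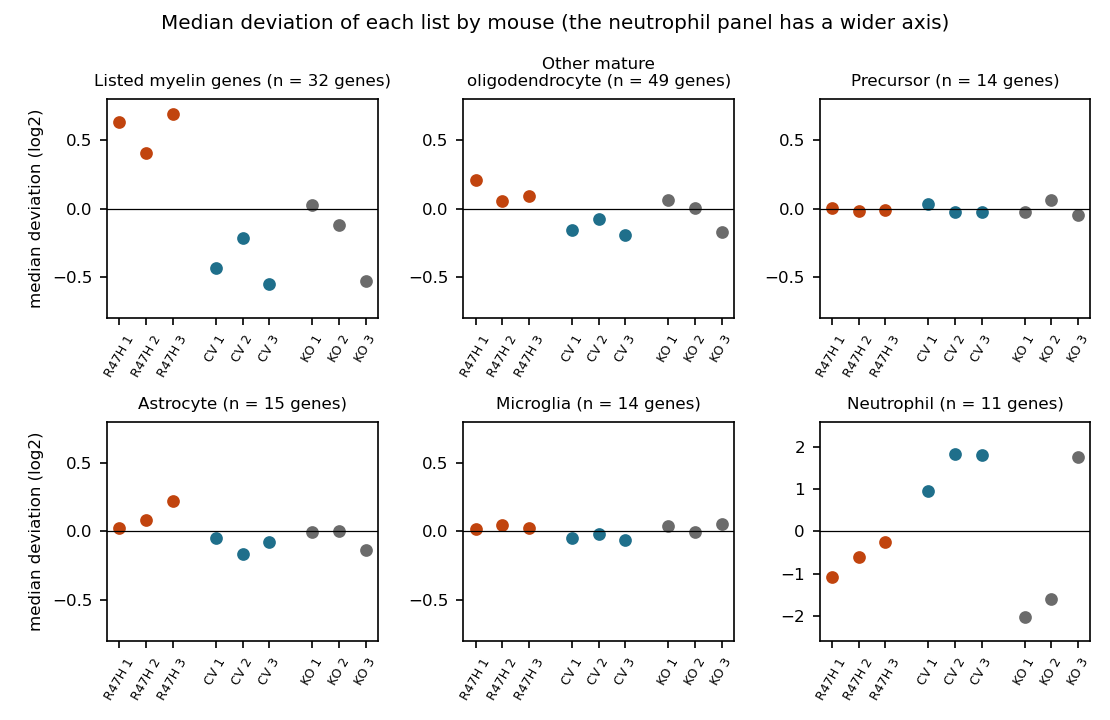
Median deviation of each gene list from the genes' means over the 9 arrays (log2), 1 point a mouse, with R47H, CV and KO from left to right and a wider axis for neutrophil genes. The myelin genes are high in the 3 R47H mice and low in CV and in KO mouse 3, where neutrophil genes are high.

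Astrocyte markers (15 measured, 8 tested) had median deviations of 0.02, 0.08 and 0.22 in R47H mice, -0.05, -0.17 and -0.08 in CV mice, and -0.01, 0.00 and -0.14 in KO mice. Their median difference in R47H minus CV was 0.37 over the tested and 0.19 over the measured genes. In R47H minus KO the medians were 0.31 and 0.17. S100b, a calcium-binding protein of astrocytes and of some oligodendrocytes, was the 1 astrocyte marker called in R47H minus CV (0 were called in R47H minus KO; limma, 4 higher at an unadjusted p under 0.05), at 7.90, 7.86 and 7.83 in R47H, 5.77, 5.61 and 5.85 in CV, and 7.13, 6.71 and 5.74 in KO (R47H minus CV 2.12 ± 0.26, limma adjusted p = 0.0127). Aldoc and Slc1a2, an astrocyte enzyme and glutamate transporter, stood 1.16 and 0.58 above CV (adjusted p = 0.0777 and 0.0874). Among the 7 markers below the filter, the gap junction protein Gja1 read 5.68, 5.85 and 6.62 in R47H, 4.67, 4.28 and 4.66 in CV, and 5.17, 5.35 and 4.64 in KO (adjusted p = 0.0828 for R47H minus CV without the filter). The astrocyte filament Gfap averaged 5.5 ± 0.46 in R47H, 4.81 ± 0.21 in CV and 4.72 ± 0.46 in KO. The water channel Aqp4 averaged 4.47 ± 0.08 in R47H and read 4.48 on every CV and KO array. The part of astrocyte material in the myelin result was not tested.

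Neutrophil markers ran the other way. Over 11 measured genes their median deviation was -1.09, -0.60 and -0.26 in R47H mice, 0.95, 1.84 and 1.82 in CV mice, and -2.03, -1.61 and 1.78 in KO mice, so CV mice and KO mouse 3 were high together, and R47H and CV did not overlap. Of 10 tested, 0 were called in any comparison (limma; 9 lower in R47H minus CV, 9 higher in CV minus KO and 0 in R47H minus KO at an unadjusted p under 0.05). S100a8, a neutrophil protein, read 9.22, 10.5 and 11.3 in R47H, 12.2, 12.8 and 12.8 in CV, and 7.84, 9.37 and 12.7 in KO. In R47H minus KO the proteases Mmp9 and Mmp8 and the receptor Csf3r stood at -0.35, -0.38 and 0.09 (adjusted p = 0.961, 0.981 and 0.972). With the neutrophil score as a covariate, 0 members were called in R47H minus CV (limma; 18 at an unadjusted p under 0.05), at a median of 0.78, where 1 gene in all (0.00926%) was called higher and 9 were called in either direction, against 41 and 86 without the score. In that fit 3 members were called in R47H minus KO, where 13 genes (0.12%) were called higher. They were Ermn at 1.61, Mag at 1.00 and Mobp at 1.04 (adjusted p = 0.0267, 0.0245 and 0.0371). By the median over each list, KO mice 1 and 2 were lower than every R47H mouse in both neutrophil and myelin transcripts. Single genes did not all follow, since S100a8 was higher in KO mouse 2 than in R47H mouse 1. The cause of these patterns was not tested.

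**Figure D5:**
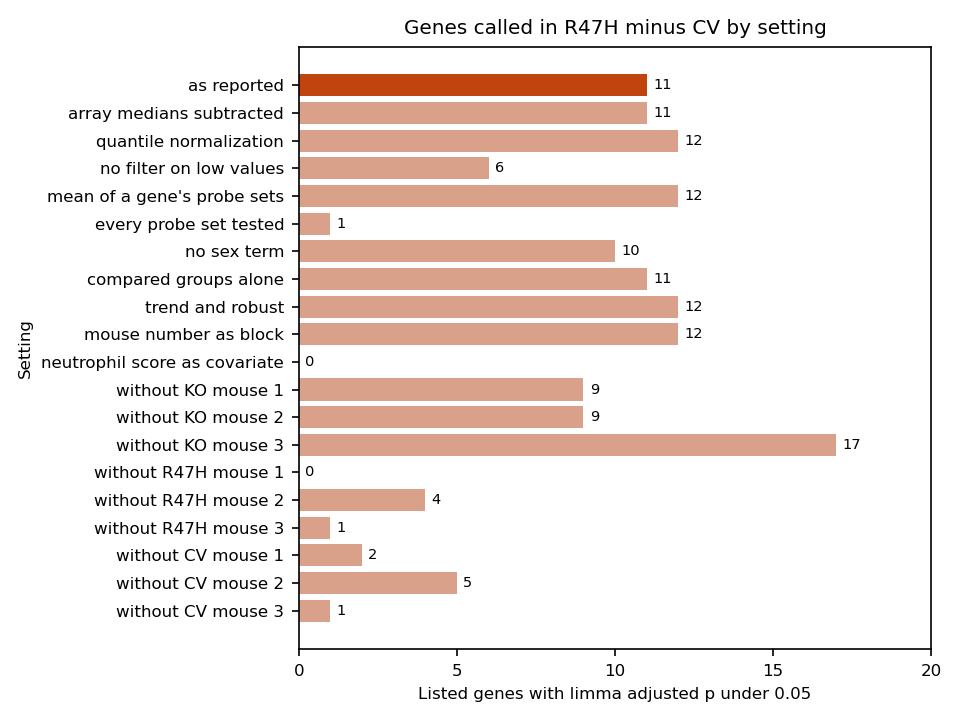
Number of myelin genes called in R47H minus CV under each setting, as bars from 0, with the reported count at the top. The count is 9 to 12 under most changes of scaling and model, 17 without KO mouse 3, and falls to between 0 and 6 without any R47H or CV mouse, without the filter, with every probe set tested or with the neutrophil score.

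The count of calls in R47H minus CV dropped when any of its 6 arrays was left out. Without R47H mouse 1, 2 or 3 the count was 0, 4 and 1, and without CV mouse 1, 2 or 3 it was 2, 5 and 1. Calls over all genes dropped too, to 10, 37 and 24 and to 15, 23 and 9, against 86 with every array. The median difference over members stayed between 0.96 and 1.17. Ermn kept its call in 7 of 9 removals and the other called members in 2 to 4 of 9. Ermn against KO kept its call in 2 of 9. With mouse number as a block in place of sex, 12 members were called in R47H minus CV, 9 of them shared with the 11. Over all genes 83 were called with that block. Cldn11 and Cmtm5 no longer passed (limma adjusted p = 0.0568 and 0.0544), and Mog, Mal and Ppp1r14a did (adjusted p = 0.0334, 0.0387 and 0.0403).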

How the data were processed

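Microarray values of 9 mice were analysed, 1 array each. The deposited table holds log2 values for 35556 probe sets on each array, a scale read from the values themselves (1.31 to 13.9, array medians 5.28 to 5.35). No source used here gives the background correction, normalization or probe summarisation. Per the labels' protocols, biotin-labelled material was made from 2 ng of total RNA. Gene names came from the array platform's annotation, which gives 1 symbol for 21789 probe sets, several for 1621 and none for 12146. The highest-mean probe set stood for each gene. A gene was tested if its mean reached 5.31, the median over all probe sets.

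Linear models with genotype and sex were fitted to all 9 arrays across all 10795 genes (limma 3.58.1, R 4.3.3; lmFit and eBayes, 5 residual and 3.73 prior degrees of freedom). P-values are two-sided, and calls are those below 0.05 after Benjamini-Hochberg adjustment, done separately for each comparison. SE come from the model and SD from 3 mice. Array number limits the precision, with a median residual SD of 0.12. The model was tested on simulated data.

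Members, lists and tests were chosen with earlier results of these data known. Members were given array by array if called, if they differed by at least 1 in any comparison or if they had 1 of the 3 smallest p in their role group, and other lists by called genes and the 3 smallest p in R47H minus KO. Alternatives covered scaling, filter, probe set choice, covariates, pairing and single arrays.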

Additional observations from a re-analysis of the deposited data

How the results depend on the processing

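Most directions held while many calls did not. Of 46 differences given for tested members, recomputed under 19 alternatives each, 3 changed sign. Members below the filter and genes of the other lists were not part of this count. Without CV mouse 1, R47H minus CV of Nkx6-2 was 0.0125 (-0.0915 to 0.0125 over single removals). Of the 46, 3 were CV minus KO, and 2 of these turned with the neutrophil score as a covariate, to 0.0269 for Apod and 0.046 for Mag. Mobp and Ermn, outside the 46 in CV minus KO, turned as well with the score (to 0.23 and 0.16). The median over members in CV minus KO turned to 0.0365 in that fit, and in R47H minus CV it moved to 0.78. The number of members called in R47H minus CV (11) was 6 without the filter (Mbp, Mobp, Mag, Ermn, Fa2h and Ugt8a), 1 with every probe set tested and 0 with the neutrophil score (limma; 18 at an unadjusted p under 0.05). Over all genes, 48 of 19938 were called without the filter and 9 of 10795 with the score, against 86 of 10795 as reported. In R47H minus KO the number of members called (1) was 2 without the filter, 0 with every probe set tested (25 at an unadjusted p under 0.05) and 3 with the neutrophil score. There 8 genes in all were called without the filter and 15 with the score, against 9 as reported. With every probe set tested, calls over all probe sets were not counted. The causes of these changes in the counts were not tested. Leaving out each array gave 0 to 17 members called in R47H minus CV, 0 to 2 in R47H minus KO and 0 to 3 in CV minus KO. Over all genes the same removals gave 9 to 133, 0 to 10 and 54 to 172 calls. With mouse number as a replicate block, 12 members were called in R47H minus CV, 1 in R47H minus KO and 0 in CV minus KO (limma; 3 at an unadjusted p under 0.05). Over all genes 83, 11 and 136 were called with that block. Deviations from group means of same-numbered mice correlated at 0.33, 0.20 and 0.20 between R47H and CV, and over all 9 pairs of the 3 genotypes at -0.04 to 0.36. A mouse matched its own number best in 12 of 18 checks. The labels do not say that a number marks a litter or day, and mouse 1 was the female in each genotype, so the correlations do not settle whether the numbers pair mice; they were read by comparison after the calls of the block were known. Probe sets near the array floor, such as Opalin and Pdgfra, may not resolve small differences.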
